A study of Mus musculus with 26 samples.

Results

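The MN1 knockout by ATRA interaction is the difference between 2 effects of all-trans retinoic acid (ATRA), one measured in LSD1 knockout (KO) cells and one in control (CTL) cells, both transformed by MN1. It was computed per gene on the log2 scale as (MN1 KO + ATRA minus MN1 KO W/O ATRA) minus (MN1 CTL + ATRA minus MN1 CTL W/O ATRA), so a positive value means that ATRA raised the gene by a larger factor, or lowered it by a smaller one, in the knockout. The 12 MN1 libraries, 3 per group, were the members, out of 24 RNA libraries and 26 samples in the series. Of 48795 genes in the table, 13855 passed the count filter in the MN1 libraries and were tested. The other 12 RNA libraries came from the matching groups of Hoxa9/Meis1-transformed (H9M) cells.

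The cells were myeloid progenitors of C57BL/6 mice kept in culture with IL-3, IL-6 and stem cell factor. KO + ATRA cells were LSD1 knockout cells given 1 µM ATRA, KO W/O ATRA cells were knockout cells without it, CTL + ATRA cells were control cells given 1 µM ATRA, and CTL W/O ATRA cells received none. Knockout was induced with 0.1 µM 4-hydroxytamoxifen for 72 h, which activates the CreERT2 recombinase. The strain field reads CreERT2-;LSD1TM1Schuele for every sample, the knockouts included. Whether the controls were also given 4-hydroxytamoxifen is not on the labels, so the knockout, the drug and the recombinase cannot be told apart. The labels also leave out the length of ATRA treatment and whether replicates were separate cultures, and p-values therefore measure only the spread between these libraries. Total counts lay between 24904303 and 32674685 per MN1 library, and all MN1 column names ended in the same suffix, whose meaning is not given.

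ATRA binds the retinoic acid receptors, which sit as dimers with RXR on response elements in DNA and switch from recruiting co-repressors to recruiting co-activators when ligand is bound. Receptor targets include the enzymes that remove retinoids, so the pathway limits its own signal, and in myeloid cells ATRA is known for driving granulocytic differentiation. LSD1, the product of Kdm1a, is a demethylase of histone H3 that works in co-repressor complexes with the zinc finger proteins GFI1 and GFI1B. MN1 is a transcriptional coregulator whose high expression in acute myeloid leukaemia has been linked to a poor response to ATRA.

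Kdm1a, the targeted gene, had 2.22, 1.85 and 2.36 CPM in KO + ATRA, 1.41, 1.28 and 1.58 CPM in KO W/O ATRA, 203, 192 and 196 CPM in CTL + ATRA and 187, 193 and 192 CPM in CTL W/O ATRA. Both knockout groups lay far below both control groups, and the groups did not overlap between genotypes. With ATRA the knockout kept 0.936% to 1.19% of the matched control level, and without ATRA 0.673% to 0.829%. Its interaction was 0.53 ± 0.15 (SE), and the adjusted p of edgeR's quasi-likelihood test with Benjamini-Hochberg adjustment was 0.0619. It passed the threshold when library totals alone set the scale (adjusted p = 0.0495), with a stricter level filter (0.0481) or without KO + ATRA replicate 2 (0.0269). Mn1, the transforming gene, whose introduced and endogenous reads were not separated, had 63.1 ± 6.59 CPM in KO + ATRA, 51.4 ± 5.97 CPM in KO W/O ATRA, 68.9 ± 3.42 CPM in CTL + ATRA and 59.3 ± 4.30 CPM in CTL W/O ATRA (SD, n = 3 each, as for all means below), and an interaction of 0.06 ± 0.10 (adjusted p = 0.878).

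Summed markers of other lineages differed between the groups. Of 12 B cell markers, 11 stayed under 1 CPM in every MN1 library, of 14 T and NK cell markers 10 did, and of 10 eosinophil markers 7 did, with Ear1, Ear2 and Ear6 at 0. The remaining B cell marker, the immunoglobulin heavy chain gene Ighm, had 11.0 ± 0.794 CPM in KO + ATRA, 6.37 ± 0.655 CPM in KO W/O ATRA, 64.9 ± 2.65 CPM in CTL + ATRA and 35.4 ± 0.582 CPM in CTL W/O ATRA, and its interaction of -0.10 ± 0.10 was not called (adjusted p = 0.729). Its levels were thus lower in the knockout and higher with ATRA in both genotypes. The whole B cell list summed to 11.6 to 13.6 CPM in KO + ATRA, 6.63 to 7.89 CPM in KO W/O ATRA, 63.5 to 68.6 CPM in CTL + ATRA and 35.6 to 36.6 CPM in CTL W/O ATRA. The T and NK cell list summed to 44.1 to 46.7 CPM in KO + ATRA, 63.1 to 65.7 CPM in KO W/O ATRA, 20.9 to 25.1 CPM in CTL + ATRA and 29.4 to 30.6 CPM in CTL W/O ATRA. Its most abundant member was Nkg7 in both KO groups and Lck in both CTL groups, and Nkg7 is also on the primary granule list. The eosinophil list, led by Siglecf, gave 7.59 to 9.73 CPM in KO + ATRA, 6.13 to 7.21 CPM in KO W/O ATRA, 1.15 to 1.37 CPM in CTL + ATRA and 0.950 to 1.32 CPM in CTL W/O ATRA. At either ATRA state the B cell sum was lower in KO than in CTL cells, and the T and NK cell and eosinophil sums were higher. Erythroid markers, of which the transferrin receptor gene Tfrc was the most abundant, summed to 468 to 530.2 CPM in KO + ATRA, 567 to 596 CPM in KO W/O ATRA, 318 to 357 CPM in CTL + ATRA and 419 to 474 CPM in CTL W/O ATRA. Megakaryocyte markers, led by Itga2b, came to 150.0 to 164 CPM in KO + ATRA, 154 to 161 CPM in KO W/O ATRA, 120.3 to 134 CPM in CTL + ATRA and 110.4 to 115 CPM in CTL W/O ATRA. Stromal markers, led by the adhesion molecule gene Pecam1, reached 659.9 to 662 CPM in KO + ATRA, 541 to 555 CPM in KO W/O ATRA, 524 to 531 CPM in CTL + ATRA and 420.3 to 437 CPM in CTL W/O ATRA. These sums too were higher in KO than in CTL cells at either ATRA state, as were those of the next list. The summed mast cell and basophil markers, of which Cpa3 and Hdc were the most abundant, stood at 3193 to 3338 CPM in KO + ATRA, 3790 to 3868 CPM in KO W/O ATRA, 1538 to 1605 CPM in CTL + ATRA and 1777 to 1823 CPM in CTL W/O ATRA. In bulk libraries, fewer cells of a type and less RNA per cell cannot be told apart. Across the 7 lists of other cell types, edgeR called Itga2b and Col1a2 for the interaction. They were 1 of 10 tested megakaryocyte and 1 of 6 tested stromal markers, against 2.92% of all tested genes. Called members were 0 of 5 erythroid, 10 mast cell and basophil, 4 eosinophil, 2 B cell and 4 T and NK cell markers tested. Itga2b, an integrin of megakaryocytes and early progenitors, had an interaction of -0.22 and was lost in 10 of the 12 fits that left out a library. Col1a2, a collagen chain, had one of 0.68 and was lost in 4. The progenitor surface marker Cd34 was high in all groups, with 3253 ± 60.1 CPM in KO + ATRA, 3132 ± 27.9 CPM in KO W/O ATRA, 1907 ± 62.3 CPM in CTL + ATRA and 2080.3 ± 56.8 CPM in CTL W/O ATRA. What part differences in cell makeup had in the interaction was not tested.

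The interaction was called for 405 genes (2.92% of those tested) at an adjusted p under 0.05. It was positive for 171 genes (1.23%) and negative for 234 genes (1.69%). Most were modest: 300 genes had an interaction under 1.5-fold, 70 lay between 1.5-fold and 2-fold, and 35 reached 2-fold, 17 of them positive and 18 negative. The median absolute value was 0.40 on the log2 scale. The negative count depended on 2 libraries and on the filter, with 152 genes without KO W/O ATRA replicate 1, 150 without CTL W/O ATRA replicate 3 and 390 with no count filter. For comparison, ATRA itself changed 2874 genes in KO cells (20.7%; 9.73% higher and 11% lower) and 3410 in CTL cells (24.6%; 13.1% higher and 11.5% lower). The knockout changed 8414 genes with ATRA (60.7%; 30.9% higher and 29.9% lower) and 8109 without it (58.5%; 31.1% higher and 27.5% lower). The split of the ATRA effect in KO cells depended on the scaling, with 1348 genes higher and 1526 lower under TMM but 1753 higher and 936 lower when library totals alone were used. Its lower count was 898 without KO + ATRA replicate 2 and 1016 without KO + ATRA replicate 3. All 4 effects came from 1 fit, and the interaction shares its libraries with each of them.

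**Figure D1:**
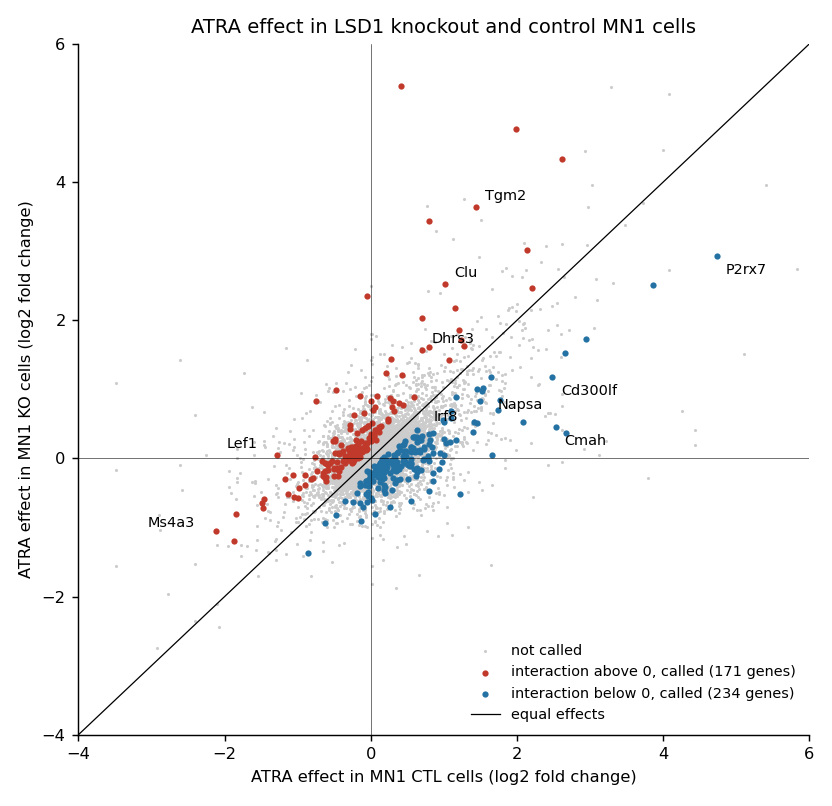
ATRA effect in MN1 KO cells (vertical axis, log2 fold change) against the ATRA effect in MN1 CTL cells (horizontal axis, log2 fold change) for each tested gene. Red points are the 171 genes with a called positive interaction, blue points the 234 with a called negative one, and the diagonal marks equal effects; 5 tested genes, none of them called, lie outside the axes.

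The largest class of negative interactions, 110 of 234 genes, was raised by ATRA in CTL cells and not called for ATRA in KO cells. Another 55 fell with ATRA in KO cells and were not called in CTL cells, 41 rose in both genotypes by a smaller factor in KO cells, 18 fell in KO cells and rose in CTL cells, 8 fell in both, and 2 were called in neither. Of the 171 positive interactions, 60 were lowered by ATRA in CTL cells and not called in KO cells, 46 rose in KO cells and were not called in CTL cells, 29 fell in both by a smaller factor in KO cells, 25 rose in both by a larger factor in KO cells, and 11 rose in KO cells and fell in CTL cells. On the linear CPM scale the difference of differences kept its sign for 157 of the 171 positive and 216 of the 234 negative genes, and had the opposite sign for 14 and 18. A log2 interaction compares factors, and a gene that starts from another level in the knockout can differ in sign between the scales.

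**Figure D2:**
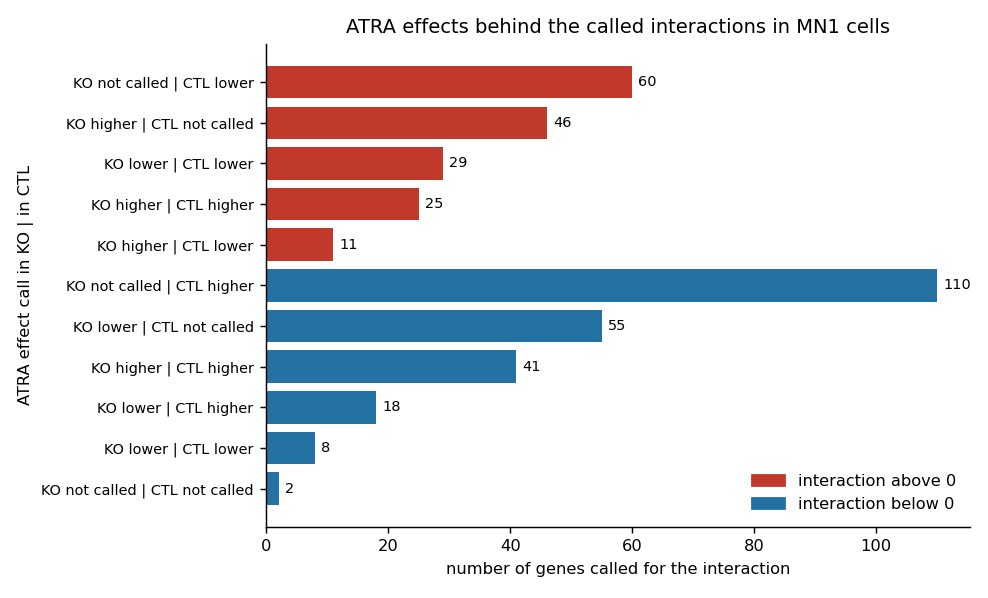
Number of genes with a called interaction (horizontal axis) by how ATRA was called in KO and in CTL cells (vertical axis), with positive interactions in red and negative ones in blue. The longest bar holds the 110 genes that rose with ATRA in CTL cells and were not called in KO cells.

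Genes of retinoic acid metabolism and response were called in the positive direction only. Of 27 listed, 18 were tested and 4 were called, against 1.23% of all tested genes, with 3 or 4 called when 1 library was left out. Cyp26a1, the enzyme that degrades ATRA and a textbook receptor target, is known for a retinoic acid response element close to its start. The promoter is shown because it holds a repeat of the kind that retinoic acid receptors bind. It is the RefSeq promoter (GRCm38.p6, plus strand) at chr19:37697698-37697807, and capitals mark a direct repeat that matches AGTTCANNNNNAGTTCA on the opposite strand, 32 to 16 bases before the start site. That start site lies inside the gene's annotated interval, which begins at chr19:37697738, upstream of the repeat.
Cyp26a1: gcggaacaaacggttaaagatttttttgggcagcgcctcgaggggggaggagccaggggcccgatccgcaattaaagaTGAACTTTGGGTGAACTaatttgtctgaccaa
With both strands searched over 250 bases before and 50 after each start, this motif was present in 3 of 9870 promoters of tested genes (0.0304%) and in 0 of 126 promoters of positive and 0 of 184 of negative interaction genes that had a sequence. An absent match says only that these letters are not in that window.

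Cyp26a1 had 9.47, 8.27 and 8.11 CPM in KO + ATRA and 2.52, 1.64 and 1.37 CPM in CTL + ATRA, and 0 counts in every library without ATRA. Every KO + ATRA library lay above every CTL + ATRA library. Against a floor of 3 counts over a group, the ATRA effect was at least 221-fold in KO cells and at least 54.9-fold in CTL cells. No interaction is given, since both untreated groups were at 0. In the presence of ATRA the knockout effect was 2.19 on the log2 scale (adjusted p = 1.06e-09).

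Tgm2, a protein-crosslinking transglutaminase long known as a retinoic acid-induced gene (chr2:158116405-158146392), had 40.1, 45.9 and 45.2 CPM in KO + ATRA, 3.74, 3.37 and 3.20 CPM in KO W/O ATRA, 183, 188 and 185 CPM in CTL + ATRA and 68.8, 68.4 and 65.2 CPM in CTL W/O ATRA. The 4 groups did not overlap, and both knockout groups lay below both control groups. ATRA raised it by 3.64 ± 0.08 (log2, SE) in KO cells and by 1.44 ± 0.04 in CTL cells, an interaction of 2.20 ± 0.10 (adjusted p = 6.99e-13). The ATRA factor was larger in the knockout, but the rise in CPM was larger in control cells, and the difference of differences was -77.5 CPM.

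Dhrs3, a reductase that returns retinaldehyde to retinol, had 116, 119 and 122 CPM in KO + ATRA, 38.6, 40.8 and 38.4 CPM in KO W/O ATRA, 53.4, 51.0 and 51.9 CPM in CTL + ATRA and 32.0, 31.5 and 31.5 CPM in CTL W/O ATRA. KO + ATRA stood above the other 3 groups, and no groups overlapped. Its interaction was 0.86 ± 0.06 (adjusted p = 2.72e-09), and multiplying the ATRA factor of CTL cells by the knockout factor without ATRA would have given 64.7 CPM in KO + ATRA, against the 119 ± 2.83 CPM measured. Its interval overlaps that of Vps13d, which was not called, and no source used here states which strand was counted. Cyp26b1, a second ATRA-degrading enzyme, had 5.79 ± 0.206 CPM in KO + ATRA, 1.25 ± 0.210 CPM in KO W/O ATRA, 2.53 ± 0.338 CPM in CTL + ATRA and 1.12 ± 0.104 CPM in CTL W/O ATRA and an interaction of 1.03 ± 0.25 (adjusted p = 0.0191). That call was lost when all 24 libraries were fitted together (adjusted p = 0.0801) and in 4 of the 12 fits that left out a library. Aldh1a3, which makes retinoic acid from retinaldehyde, had 74.2 ± 1.89 CPM in KO + ATRA, 39.2 ± 0.959 CPM in KO W/O ATRA, 63.4 ± 1.98 CPM in CTL + ATRA and 41.7 ± 2.34 CPM in CTL W/O ATRA, with an interaction of 0.30 ± 0.06 (adjusted p = 0.00632).

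The tested receptor genes were not called for the interaction by edgeR, which was -0.08 ± 0.10 for Rara, -0.10 ± 0.09 for Rarg, 0.70 ± 0.70 for Rxra and 0.03 ± 0.05 for Rxrb (adjusted p of 0.801, 0.678, 0.734 and 0.855). Cd38, another known receptor target, had 26.7 ± 0.917 CPM in KO + ATRA, 3.62 ± 0.590 CPM in KO W/O ATRA, 3.91 ± 0.616 CPM in CTL + ATRA and 0.765 ± 0.145 CPM in CTL W/O ATRA. ATRA raised it by 2.84 in KO cells and by 2.33 in CTL cells, and its interaction of 0.52 ± 0.24 did not pass (adjusted p = 0.333). Hic1, a transcriptional repressor on the same list, rose by 3.95 in KO cells and by 5.41 in CTL cells, and its interaction of -1.46 ± 0.83 did not pass either (adjusted p = 0.463). Over the 17 list members with more than 3 counts in each group the median interaction was 0.03, against -0.01 over all such genes, with the 4 called genes included and uncalled members on both sides of 0.

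**Figure D3:**
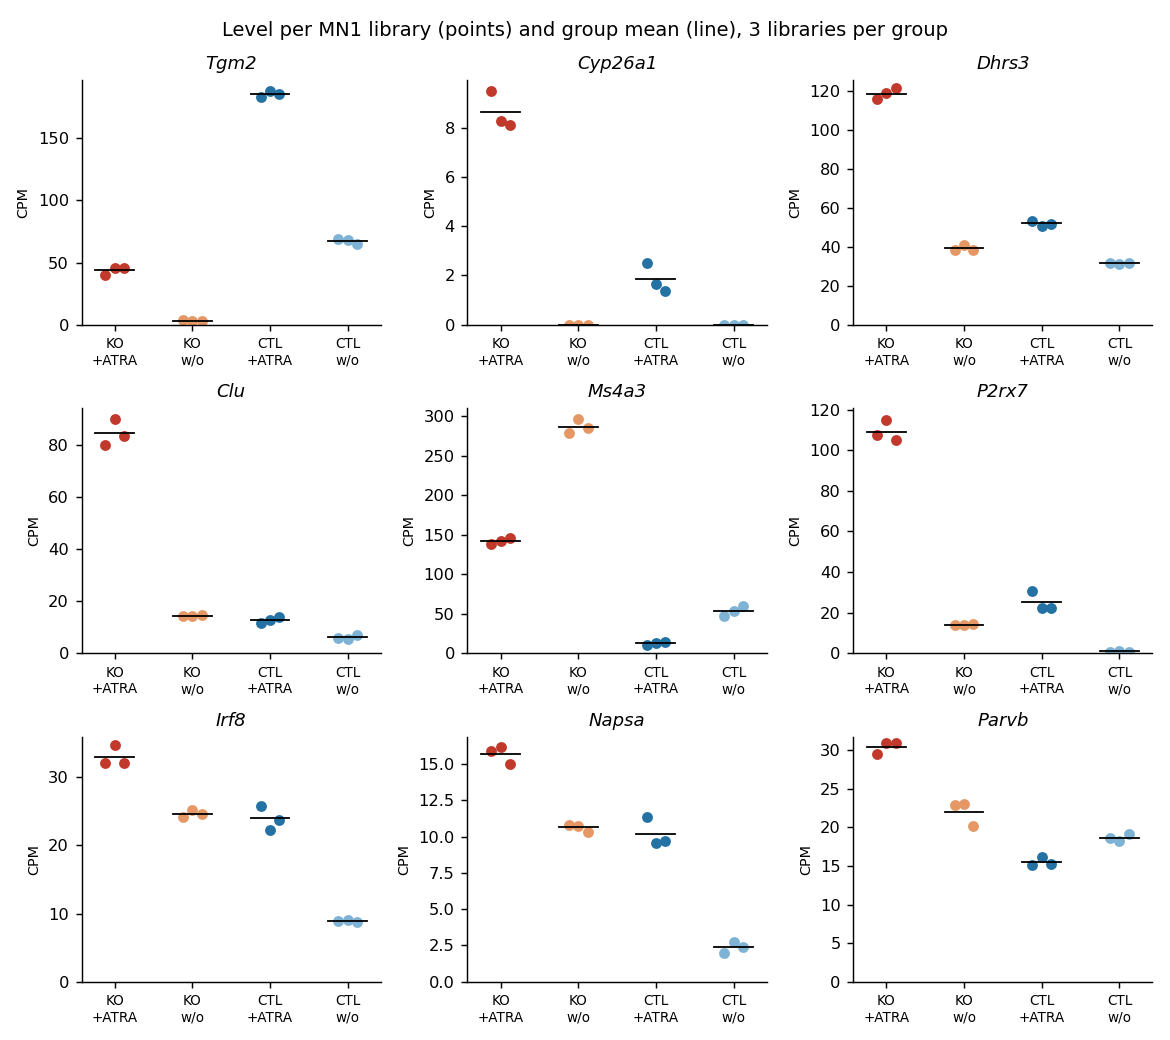
Expression in CPM (vertical axis from 0) of 9 genes in each of the 12 MN1 libraries, with a point per library and a line at the group mean. Tgm2, Dhrs3 and Clu rose with ATRA by a larger factor in KO cells, Ms4a3 fell by a smaller factor there, P2rx7, Irf8 and Napsa rose by a smaller factor, Parvb rose in KO cells and fell in CTL cells, and Cyp26a1 was at 0 without ATRA.

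Of the 15 most positive genes by the level and count criteria, ATRA was called higher for 11 in KO cells and for 5 in CTL cells, and 13 were higher in the knockout with ATRA. Over all tested genes these shares were 9.73%, 13.1% and 30.9%. The genes were ranked by the interaction, which shares its libraries with these effects, so the counts are a description. H19, an imprinted long noncoding RNA, had 25.4, 22.6 and 26.0 CPM in KO + ATRA, 2.75, 2.32 and 1.58 CPM in KO W/O ATRA, 0.295, 0.239 and 0.381 CPM in CTL + ATRA and 0.113, 0.129 and 0.262 CPM in CTL W/O ATRA. The KO + ATRA libraries stood alone, and the control groups overlapped at less than 0.4 CPM. Its interaction was 2.65 ± 0.60 (adjusted p = 0.0126), but without CTL W/O ATRA replicate 3 the adjusted p was 0.201. Clu, the secreted chaperone clusterin, had 79.9, 90.0 and 83.6 CPM in KO + ATRA, 14.2, 14.2 and 14.7 CPM in KO W/O ATRA, 11.5, 12.8 and 13.9 CPM in CTL + ATRA and 6.04, 5.65 and 6.84 CPM in CTL W/O ATRA. All 4 groups were separate, with KO + ATRA far above the rest. ATRA raised Clu by 2.52 ± 0.07 in KO cells and by 1.02 ± 0.09 in CTL cells, an interaction of 1.50 ± 0.12 (adjusted p = 1.3e-08), and 29.6 CPM would follow from the product of the separate factors.

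Fn1, which encodes the matrix protein fibronectin, had 24.3 ± 1.10 CPM in KO + ATRA, 11.9 ± 1.19 CPM in KO W/O ATRA, 0.661 ± 0.109 CPM in CTL + ATRA and 0.909 ± 0.304 CPM in CTL W/O ATRA. ATRA raised it by 0.99 ± 0.09 in KO cells and the CTL effect of -0.47 ± 0.27 did not pass the test, giving an interaction of 1.47 ± 0.28 (adjusted p = 0.00346). Klf5, a Krüppel-like transcription factor, followed the same layout with 7.17 ± 0.262 CPM in KO + ATRA, 3.75 ± 0.274 CPM in KO W/O ATRA, 1.58 ± 0.190 CPM in CTL + ATRA and 1.73 ± 0.238 CPM in CTL W/O ATRA and an interaction of 1.05 ± 0.21 (adjusted p = 0.00416). Flrt2, a leucine-rich repeat membrane protein, had 11.7 ± 0.812 CPM in KO + ATRA, 4.17 ± 0.493 CPM in KO W/O ATRA, 9.12 ± 0.984 CPM in CTL + ATRA and 7.43 ± 0.862 CPM in CTL W/O ATRA, so the knockout was lower without ATRA and slightly higher with it (interaction 1.17 ± 0.15, adjusted p = 4.12e-05). Dysf, the membrane repair protein dysferlin, had an interaction of 1.02 ± 0.22 and Sema3a, a secreted semaphorin, one of 0.89 ± 0.20. Both were lost without a single library, Dysf without CTL W/O ATRA replicate 3 (adjusted p = 0.0615) and Sema3a without KO W/O ATRA replicate 3 (0.0813).

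Chst15, a chondroitin sulfotransferase, had 7.84 ± 0.967 CPM in KO + ATRA, 0.377 ± 0.160 CPM in KO W/O ATRA, 2.83 ± 0.571 CPM in CTL + ATRA and 0.467 ± 0.217 CPM in CTL W/O ATRA, an interaction of 1.72 ± 0.45 and an adjusted p of 0.0372. Gimap4, a GTPase of immune cells, had 8.99 ± 0.808 CPM in KO + ATRA, 2.14 ± 0.510 CPM in KO W/O ATRA, 0.843 ± 0.172 CPM in CTL + ATRA and 0.514 ± 0.0452 CPM in CTL W/O ATRA and an interaction of 1.33 ± 0.33 (adjusted p = 0.0277). These calls rested on the full set of libraries, with 8 and 7 of the 12 leave-one-out fits losing them. Hapln1, a link protein of the hyaluronan matrix, was the only called gene with 3 or fewer counts over a group, with 62 counts in KO + ATRA, 1 in KO W/O ATRA, 16 in CTL + ATRA and 12 in CTL W/O ATRA, and is given without a fold. Without CTL W/O ATRA replicate 3 its adjusted p was 0.0622, and DESeq2 did not call it.

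Other positive interactions belonged to genes that ATRA lowered by a smaller factor in the knockout. Ms4a3, a membrane protein of granulocyte-monocyte progenitors, had 139, 142 and 146 CPM in KO + ATRA, 279, 296 and 285 CPM in KO W/O ATRA, 10.7, 12.9 and 14.1 CPM in CTL + ATRA and 47.6, 53.5 and 59.5 CPM in CTL W/O ATRA. Every knockout library lay above every control library, and within each genotype the ATRA libraries were the lower ones. The ATRA effect on Ms4a3 was -1.04 ± 0.05 on the log2 scale in KO cells and -2.12 ± 0.08 in CTL cells, an interaction of 1.07 ± 0.10 (adjusted p = 1.91e-07). In CPM the fall was larger in the knockout, with a difference of differences of -103 CPM, from a higher starting level.

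Lef1, a transcription factor of the Wnt pathway, had 7.05, 6.67 and 6.70 CPM in KO + ATRA, 6.29, 6.61 and 6.32 CPM in KO W/O ATRA, 0.589, 0.992 and 0.951 CPM in CTL + ATRA and 2.15, 1.97 and 1.93 CPM in CTL W/O ATRA. The control libraries were lower with ATRA, whereas the knockout libraries with ATRA were slightly above those without. The ATRA effect was 0.05 ± 0.11 in KO cells (adjusted p = 0.787) and -1.28 ± 0.19 in CTL cells, an interaction of 1.33 ± 0.22 (adjusted p = 0.000568). Id2, an inhibitor of basic helix-loop-helix factors and a listed GFI1 target, had 32.6 ± 1.26 CPM in KO + ATRA, 31.5 ± 1.39 CPM in KO W/O ATRA, 6.38 ± 0.591 CPM in CTL + ATRA and 10.8 ± 0.394 CPM in CTL W/O ATRA and an interaction of 0.78 ± 0.10 (adjusted p = 3.29e-05). The monocyte chemokine receptor gene Ccr2 had 499 ± 33.0 CPM in KO + ATRA, 576 ± 11.3 CPM in KO W/O ATRA, 271 ± 31.0 CPM in CTL + ATRA and 502 ± 10.0 CPM in CTL W/O ATRA, with an interaction of 0.66 ± 0.08, and the lysozyme gene Lyz2 had 37.9 ± 0.585 CPM in KO + ATRA, 49.6 ± 1.01 CPM in KO W/O ATRA, 8.60 ± 0.703 CPM in CTL + ATRA and 16.8 ± 2.12 CPM in CTL W/O ATRA, with one of 0.56 ± 0.10. Htr1b, a serotonin receptor, and Tnfsf4, the ligand of OX40, shared this layout with interactions of 1.04 ± 0.17 and 0.87 ± 0.17. Lyz2 has a near-identical neighbour in Lyz1, so its value is uncertain where reads were shared.

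The 15 most negative genes by the level and count criteria were all raised by ATRA in control cells, and 13 of them were already higher in the knockout without ATRA. Over all tested genes these shares were 13.1% and 31.1%. The ranking used the interaction, which contains the CTL W/O ATRA libraries of both effects, so the counts only describe the ranked genes. P2rx7, an ATP-gated ion channel of myeloid cells (chr5:122643927-122692336), had 107, 115 and 105 CPM in KO + ATRA, 13.7, 13.8 and 14.3 CPM in KO W/O ATRA, 30.7, 22.4 and 22.4 CPM in CTL + ATRA and 0.830, 1.13 and 0.819 CPM in CTL W/O ATRA. No groups overlapped, and KO + ATRA was the highest. ATRA raised it by 2.94 ± 0.08 in KO cells and by 4.74 ± 0.16 in CTL cells, an interaction of -1.80 ± 0.22 (adjusted p = 1.77e-05). The product of the separate factors would have given 378 CPM in KO + ATRA, although in CPM the rise was larger in the knockout, with a difference of differences of 71.0 CPM.

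Napsa, an aspartic protease, had 15.9, 16.2 and 15.0 CPM in KO + ATRA, 10.8, 10.7 and 10.3 CPM in KO W/O ATRA, 11.4, 9.54 and 9.70 CPM in CTL + ATRA and 1.96, 2.71 and 2.42 CPM in CTL W/O ATRA. The CTL + ATRA range contained all of KO W/O ATRA, while CTL W/O ATRA lay below and KO + ATRA above. The interaction was -1.55 ± 0.14 (adjusted p = 2.49e-07), with an ATRA effect of 0.53 ± 0.08 in KO cells and 2.08 ± 0.11 in CTL cells. Irf8, a transcription factor required for monocytes and dendritic cells, had 32.1, 34.7 and 32.1 CPM in KO + ATRA, 24.1, 25.2 and 24.6 CPM in KO W/O ATRA, 25.8, 22.3 and 23.8 CPM in CTL + ATRA and 8.94, 9.11 and 8.81 CPM in CTL W/O ATRA. Again KO W/O ATRA and CTL + ATRA overlapped, between a lower CTL W/O ATRA and a higher KO + ATRA. Its interaction was -1.02 ± 0.09 (adjusted p = 2.21e-07), and the product of the separate factors would have given 65.9 CPM against the 32.9 ± 1.48 CPM measured.

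Cmah, which makes the sialic acid Neu5Gc, had the most negative interaction among the genes named by level. It had 5.38, 4.66 and 6.00 CPM in KO + ATRA, 4.00, 3.97 and 3.47 CPM in KO W/O ATRA, 2.26, 1.30 and 1.45 CPM in CTL + ATRA and 0.302, 0.323 and 0.229 CPM in CTL W/O ATRA, with no overlap between groups and CTL W/O ATRA the lowest. The interaction was -2.07 ± 0.34 (adjusted p = 0.000785).

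The other negative genes named by level covered several roles. Ifi202b, an interferon-inducible DNA-binding protein with close paralogues, had an interaction of -1.61 ± 0.27. Pacsin1, an adaptor of endocytosis, had -1.21 ± 0.19, Crispld2, a secreted glycoprotein, -0.95 ± 0.09, and P2rx1, another ATP-gated channel, -0.93 ± 0.12. Plekhh3 had -1.03 ± 0.23, Tmem119, a membrane protein known as a microglial marker, -1.06 ± 0.19, and Irs1, an insulin receptor substrate, -1.17 ± 0.29. The adjusted p was 3.54e-07 for Crispld2 and between 4.12e-05 and 0.0251 for the others. Irs1 was lost under limma-voom (adjusted p = 0.0653) and in 4 leave-one-out fits, and Plekhh3 without CTL W/O ATRA replicate 2 (0.056). The metalloreductase gene Steap4 (-1.35 ± 0.37, adjusted p = 0.0476) was lost in 9 leave-one-out fits and 5 other settings.

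Cd300lf and Rab37 must be read together, because the interval of Cd300lf (chr11:115116214-115135372) lies within that of Rab37 (chr11:115091331-115162773). Cd300lf, an immune receptor of myeloid cells, had 17.7, 19.7 and 19.2 CPM in KO + ATRA, 8.08, 7.97 and 8.21 CPM in KO W/O ATRA, 9.69, 10.4 and 9.55 CPM in CTL + ATRA and 1.70, 2.20 and 1.31 CPM in CTL W/O ATRA. Rab37, a small GTPase of secretory vesicles, had 35.6, 35.2 and 35.7 CPM in KO + ATRA, 21.4, 21.6 and 20.7 CPM in KO W/O ATRA, 65.6, 63.4 and 59.9 CPM in CTL + ATRA and 18.3, 18.8 and 18.7 CPM in CTL W/O ATRA. In both genes the 4 groups were separate, with KO + ATRA highest for Cd300lf and CTL + ATRA highest for Rab37. Their interactions were -1.30 ± 0.16 (adjusted p = 1.78e-05) and -1.04 ± 0.07 (adjusted p = 2.67e-09). Since the strand counted is not given, how far reads of one entered the count of the other was not tested. The intervals of Cd34, Htr1b and Kdm1a also overlap another tested gene, which is Gm16897 for Cd34, D430036J16Rik for Htr1b and Luzp1 for Kdm1a, of which Luzp1 was itself called (0.26 ± 0.06, adjusted p = 0.0153).

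Promoters of 3 of the negative genes are shown because they hold the PU.1 motif GAGGAAGT next to the start site. Of the 6 called genes on the PU.1 target list below, 5 were negative, but none of the 6 was among the called genes found with this motif. The sequences are RefSeq promoters (GRCm38.p6) read along the gene, and capitals mark the motif. P2rx7 (chr5:122650284-122650393, plus strand, the second of its annotated start sites) holds it on the opposite strand 4 to 11 bases into the transcript. Cd300lf (chr11:115133985-115134094, minus strand) holds it over bases 1 to 8 from a start site downstream of the beginning of its annotated interval. Itgb7 (chr15:102231928-102232037, minus strand), an integrin chain, holds it on the opposite strand over bases 1 to 8.
P2rx7: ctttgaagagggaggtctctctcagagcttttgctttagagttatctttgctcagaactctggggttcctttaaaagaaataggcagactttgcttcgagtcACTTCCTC
Cd300lf: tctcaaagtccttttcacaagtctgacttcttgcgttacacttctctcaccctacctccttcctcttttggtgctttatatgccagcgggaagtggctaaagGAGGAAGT
Itgb7: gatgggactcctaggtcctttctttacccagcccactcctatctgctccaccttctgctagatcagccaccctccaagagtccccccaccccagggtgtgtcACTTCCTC
The motif, on either strand, was present in 9 of 184 promoters of negative genes (4.89%), 3 of 126 of positive genes (2.38%) and 397 of 9870 of all tested genes (4.02%). The share among negative genes was thus close to that of all tested genes, and a match does not show a bound site.

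In 29 genes ATRA was called in opposite directions in the 2 genotypes. Among the 11 that rose in KO cells and fell in CTL cells, Parvb, an actin-binding partner of integrin-linked kinase, had 29.5, 30.9 and 31.0 CPM in KO + ATRA, 22.9, 23.0 and 20.2 CPM in KO W/O ATRA, 15.1, 16.2 and 15.3 CPM in CTL + ATRA and 18.7, 18.3 and 19.1 CPM in CTL W/O ATRA. No groups overlapped. Its ATRA effect was 0.43 ± 0.06 in KO cells and -0.28 ± 0.06 in CTL cells, an interaction of 0.72 ± 0.09 (adjusted p = 1.75e-05). Gsta4, a glutathione transferase, had 22.8 ± 2.54 CPM in KO + ATRA, 18.4 ± 0.715 CPM in KO W/O ATRA, 2.61 ± 0.502 CPM in CTL + ATRA and 3.60 ± 0.582 CPM in CTL W/O ATRA and an interaction of 0.77 ± 0.18, lost without CTL + ATRA replicate 1 or CTL W/O ATRA replicate 2 (adjusted p up to 0.1). Add2, the membrane skeleton protein beta-adducin, had 139.8 ± 3.97 CPM in KO + ATRA, 113 ± 2.57 CPM in KO W/O ATRA, 41.3 ± 4.23 CPM in CTL + ATRA and 47.1 ± 2.04 CPM in CTL W/O ATRA and an interaction of 0.48 ± 0.07 (adjusted p = 0.000209).

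Among the 18 that fell in KO cells and rose in CTL cells, Nlrp3, the sensor of the inflammasome, had 5.26, 5.06 and 5.20 CPM in KO + ATRA, 7.51, 9.38 and 7.79 CPM in KO W/O ATRA, 16.5, 20.5 and 19.6 CPM in CTL + ATRA and 14.4, 16.7 and 15.2 CPM in CTL W/O ATRA. The control groups overlapped and stood above the knockout groups, which did not overlap. The ATRA effect was -0.70 ± 0.11 in KO cells and 0.27 ± 0.08 in CTL cells, an interaction of -0.96 ± 0.14 (adjusted p = 0.000135). Stc2, the secreted protein stanniocalcin, had 24.7, 24.2 and 24.9 CPM in KO + ATRA, 34.9, 33.7 and 33.5 CPM in KO W/O ATRA, 41.8, 37.9 and 38.7 CPM in CTL + ATRA and 34.7, 35.6 and 31.9 CPM in CTL W/O ATRA. Both untreated groups overlapped, with KO + ATRA below them and CTL + ATRA above. Its interaction was -0.70 ± 0.08 (adjusted p = 4.7e-06), and the alpha-tubulin gene Tuba8 had -0.61 ± 0.08 (adjusted p = 4.12e-05).

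Read the other way, the same 405 genes describe how the knockout effect depended on ATRA. Of the 234 negative genes, 79 were higher in the knockout both with and without ATRA, 63 were lower in both, 41 were lower with ATRA and not called without it, 32 were higher without ATRA and not called with it, and 19 were lower with ATRA and higher without it. Of the 171 positive genes, 104 were higher in the knockout in both conditions, 23 were called higher with ATRA and not called without, 18 were called lower without ATRA and not called with it, 17 were lower in both, and 9 were higher with ATRA and lower without it. The knockout effect on Irf8, for example, was 0.45 with ATRA and 1.46 without it, and on P2rx7 it was 2.10 with ATRA and 3.90 without it.

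The myeloid lists showed calls in both directions, each against a background of 2.92%. Of 26 tested PU.1 target genes, 1 was called positive (Lyz2) and 5 negative (Irf8, Ncf1, Cd68, Cyba and Mpeg1), with a median of -0.16. Ncf1, a subunit of the phagocyte NADPH oxidase, had 111 ± 0.827 CPM in KO + ATRA, 89.7 ± 0.456 CPM in KO W/O ATRA, 93.5 ± 6.48 CPM in CTL + ATRA and 52.8 ± 0.847 CPM in CTL W/O ATRA and an interaction of -0.53 ± 0.06 (adjusted p = 5.37e-06). Cd68, a lysosomal protein of macrophages, had 11.1 ± 1.28 CPM in KO + ATRA, 11.97 ± 0.148 CPM in KO W/O ATRA, 6.25 ± 0.289 CPM in CTL + ATRA and 4.00 ± 0.269 CPM in CTL W/O ATRA and an interaction of -0.77 ± 0.14 (adjusted p = 0.00179). Spi1, which encodes PU.1 itself, had 94.1 ± 4.91 CPM in KO + ATRA, 91.1 ± 4.56 CPM in KO W/O ATRA, 87.6 ± 3.11 CPM in CTL + ATRA and 80.1 ± 2.71 CPM in CTL W/O ATRA, and its interaction of -0.10 ± 0.06 did not pass (adjusted p = 0.544). Of 16 monocyte and macrophage markers, Ccr2 and Lyz2 were positive and Cd68, Mpeg1 and Sirpa negative.

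Of 20 GFI1 and GFI1B target genes, Id2 and Hoxa10 were positive and Irf8, Elane and Socs3 negative (median -0.11). Gfi1 and Gfi1b, the partners of LSD1, were raised by the knockout but were not called for the interaction. Gfi1 had 354 ± 1.61 CPM in KO + ATRA, 291 ± 6.13 CPM in KO W/O ATRA, 127 ± 2.79 CPM in CTL + ATRA and 113 ± 6.75 CPM in CTL W/O ATRA and an interaction of 0.10 ± 0.05 (adjusted p = 0.398). Gfi1b had 447 ± 21.1 CPM in KO + ATRA, 475 ± 3.25 CPM in KO W/O ATRA, 66.8 ± 3.33 CPM in CTL + ATRA and 69.8 ± 3.61 CPM in CTL W/O ATRA and an interaction of -0.04 ± 0.06 (adjusted p = 0.847). Of 19 tested LSD1 complex members, 0 were called by edgeR, DESeq2 or limma-voom, and 4 had an unadjusted p under 0.05 in edgeR. Over all tested genes edgeR called 2.92%, and 1965 of 13855 had an unadjusted p under 0.05. Of 35 myeloid transcription factors, Id2 was called positive and Irf8 negative.

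Among 22 stem and progenitor genes, 5 were positive and 1 negative, with a median of 0.14. Sox4, a progenitor transcription factor, had an interaction of 0.32 ± 0.07, Hoxa10 0.30 ± 0.08, Erg, an ETS factor of stem cells, 0.22 ± 0.05, Hlf 0.19 and the surface marker Cd34 0.16 ± 0.04, whereas Runx1 had -0.25 ± 0.06. The positive count was between 1 and 8 when 1 library was left out. Runx1 was lost in 9 of the 12 such fits, Cd34 and Hoxa10 in 4 and Erg in 2. Sox4 kept its call in all 12 and lost it when all 24 libraries were fitted together (adjusted p = 0.0729).

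Of 13 primary granule genes, Ms4a3 and Lyz2 were positive and Gstm1 and Elane, the gene of neutrophil elastase, negative (-0.27 ± 0.06 and -0.37 ± 0.09). Leaving out 1 library ended the call of Elane in 6 of 12 fits and that of Gstm1 in 4, and between 0 and 2 members were then negative. Of 15 neutrophil maturation genes only Hp, haptoglobin, was called, at -0.69 ± 0.17 (adjusted p = 0.0199), and DESeq2 did not call it (adjusted p = 0.0702). It was also lost in 5 of 12 leave-one-out fits, with an adjusted p of up to 0.0921. Of 30 phagocyte receptors and integrins, 3 were negative. These were Itgb7 (-0.66 ± 0.13), the inhibitory Fc receptor gene Fcgr2b (-0.39 ± 0.07) and the lectin receptor gene Clec4d (-0.40 ± 0.08), which was lost without CTL + ATRA replicate 1 (adjusted p = 0.0516). Of 13 MHC class II and dendritic cell genes, H2-Ab1 (-0.39 ± 0.07, adjusted p = 0.00178) and H2-DMb1 (-0.33 ± 0.09, adjusted p = 0.0476) were negative, with a median of -0.29 over the 12 members with more than 3 counts in each group. H2-DMb1 was lost in 11 of 12 leave-one-out fits. Of 32 cytokine, chemokine and receptor genes, Ccr2 was positive and Il4ra negative (-0.39 ± 0.06).

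The interaction was called by edgeR, DESeq2 and limma-voom for 0 of 19 interferon response genes, 19 DNA replication genes, 19 mitosis genes, 21 p53 targets and CDK inhibitors and 20 ribosome biogenesis genes. At an unadjusted p under 0.05 in edgeR, 3 interferon genes, 0 replication genes, 1 mitosis gene, 5 p53 targets and 1 ribosome biogenesis gene passed. Over all tested genes 1965 of 13855 did. Since edgeR called 2.92% of all tested genes, 0 calls in a list of this size says little about its members. The interferon genes had a median ATRA effect of 0.53 in KO cells and 0.55 in CTL cells and a median interaction of 0.03. The median interaction was 0.01 for DNA replication genes, -0.03 for mitosis genes and -0.02 for ribosome biogenesis genes, with all members of these 3 lists between -0.20 and 0.13.

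**Figure D4:**
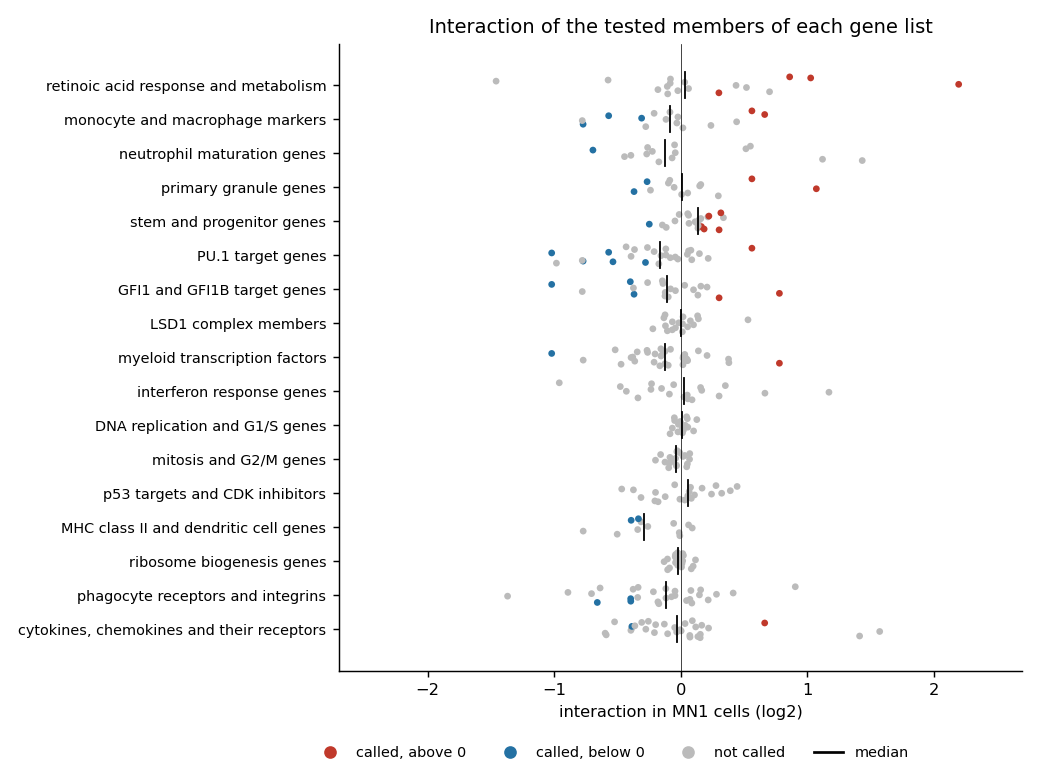
Interaction (log2, horizontal axis) of the members of 17 gene lists with more than 3 counts in each MN1 group, with called positive members in red, called negative ones in blue and the list median as a bar. The retinoic acid list holds 4 called positive members, the PU.1 list 5 called negative ones, and the DNA replication, mitosis and ribosome lists lie close to 0.

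The interaction was compared with that of the H9M libraries in a fit of all 24 libraries, which tested the difference itself over 14663 genes. The MN1 interaction differed from the H9M one for 292 genes (1.99%; 0.887% positive and 1.1% negative), and 739 genes were called for the H9M interaction (5.04%; 2.25% positive and 2.79% negative). The H9M columns ended in another suffix, so whatever it marks cannot be told apart from the model, although each interaction was measured within 1 suffix. Among the 405 MN1 interaction genes the difference was called for 98 (24.2%). In 74 of these the H9M value had the opposite sign, and in 21 of the 74 the H9M interaction was itself called. In 15 the H9M value had the same sign and a smaller size, and in 9 the same sign and a larger size. These 405 genes were chosen by the MN1 interaction, which enters the difference, so the share is a description.

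Kdm1a set the models apart. Relative to matched controls, H9M KO + ATRA libraries held 7.00% to 7.78% and H9M KO W/O ATRA libraries 0.675% to 0.718%, so the Kdm1a interaction was 0.53 in MN1 and 3.42 ± 0.11 in H9M, a difference of -2.89 ± 0.19 (adjusted p = 1.06e-11). An alternative chosen after seeing the data removed from each knockout library the share of its matched control that Kdm1a gave, and its value is printed where it ended a call. Tgm2 had 22.8 ± 1.47 CPM in H9M KO + ATRA, 1.03 ± 0.319 CPM in H9M KO W/O ATRA, 276 ± 1.57 CPM in H9M CTL + ATRA and 117 ± 2.09 CPM in H9M CTL W/O ATRA. Its interaction was 2.20 in MN1 and 3.20 in H9M, a difference of -1.005 ± 0.19 (adjusted p = 0.00175), which became 0.37 (adjusted p = 0.997) with the control share removed. Erg and Cd34 also lost their difference that way, at 0.29 (adjusted p = 0.0591) for Erg and 0.17 (adjusted p = 0.265) for Cd34.

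Napsa, Cd300lf, Rab37 and P2rx1 had negative interactions in MN1 and values near 0 or above in H9M. The differences were -1.66 ± 0.13 for Napsa (adjusted p = 2.28e-10), -1.34 ± 0.17 for Cd300lf, -1.22 ± 0.14 for Rab37 and -1.34 ± 0.13 for P2rx1. Napsa had 593 ± 9.85 CPM in H9M KO + ATRA, 257 ± 3.80 CPM in H9M KO W/O ATRA, 244 ± 8.39 CPM in H9M CTL + ATRA and 115 ± 0.413 CPM in H9M CTL W/O ATRA, and its ATRA effect was 1.23 in H9M KO cells and 1.12 in H9M CTL cells. Irf8 had a negative interaction in both models, -1.02 in MN1 and -0.38 in H9M, a difference of -0.64 ± 0.12 (adjusted p = 0.00127). Ncf1 was negative in MN1 and positive in H9M, a difference of -0.84 ± 0.07 (adjusted p = 1.69e-09).

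Among positive genes, Ccr2 and Lyz2 had opposite signs in H9M, with differences of 1.21 ± 0.16 (adjusted p = 1.42e-05) and 1.20 ± 0.12 (adjusted p = 4.98e-08). Dhrs3 had an interaction of 0.86 in MN1 and 0.19 in H9M, a difference of 0.67 ± 0.08 (adjusted p = 3.67e-06), and Aldh1a3 was larger in H9M, with a difference of -1.39 ± 0.09 (adjusted p = 1.06e-11). P2rx7 was negative in both models, -1.80 in MN1 and -3.01 in H9M, and the difference of 1.20 ± 0.62 did not pass the test (adjusted p = 0.523). The size of the H9M value is uncertain, since P2rx7 had only 0.0863 ± 0.0521 CPM in H9M CTL W/O ATRA.

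**Figure D5:**
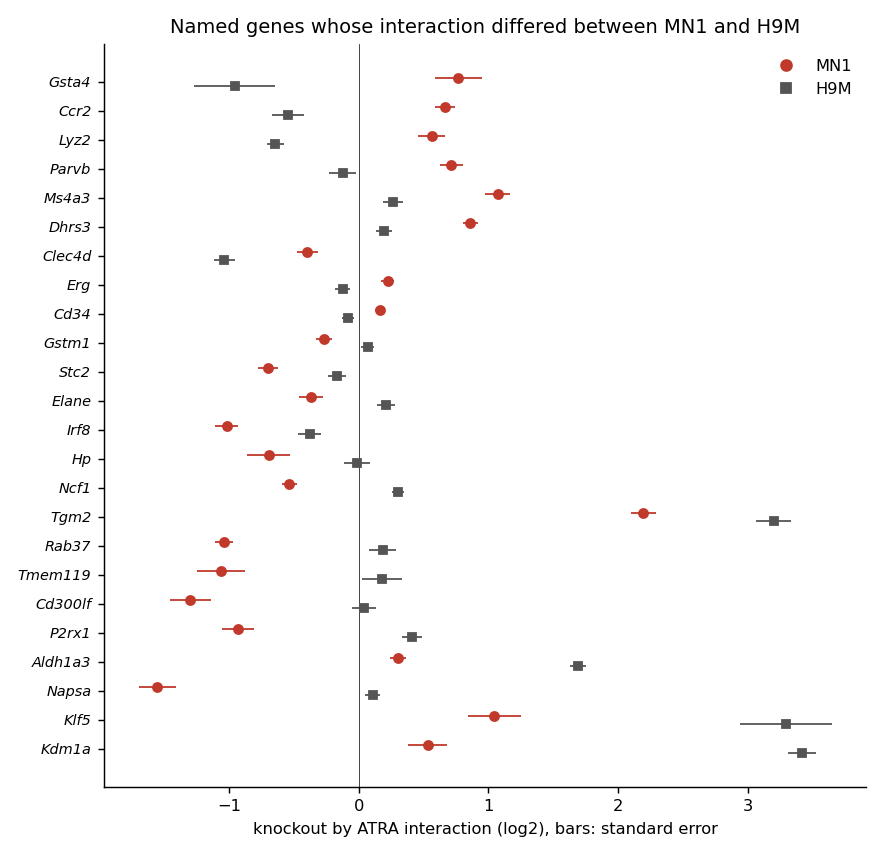
Knockout by ATRA interaction (log2, horizontal axis, bars are standard errors) in MN1 (red circles) and H9M (grey squares) for the 24 named genes whose interaction differed between the models, ordered by the difference. Gsta4, Ccr2 and Lyz2 lie above 0 in MN1 and below 0 in H9M, and Napsa, P2rx1 and Ncf1 lie below 0 in MN1 and above 0 in H9M. The H9M values of Gsta4 and Napsa were not called.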

How the data were processed

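RNA was sequenced as 100-base read pairs from stranded total RNA libraries, per the labels' protocols. The authors' deposited table holds raw counts per gene, aligned with STAR 2.5.3 to mm10 per the submitters' processing notes; no source used here names the counting tool, annotation or strand setting. Of 48795 IDs, 48349 matched a gene symbol in the reference tables and 446 did not. The 12 MN1 libraries held 24904303 to 32674685 counts, and 23166 genes had 0 counts in all of them. No libraries were duplicates: replicate counts differed by 2.12 to 5.54 chi-square units per degree of freedom.

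Genes were kept with edgeR's filterByExpr (13855 genes), scaled by TMM (factors 0.985 to 1.02) and fitted in R 4.3.3 with edgeR 4.0.16 as 4 groups with 8 residual degrees of freedom. Contrasts were tested with edgeR's quasi-likelihood test, with Benjamini-Hochberg adjustment over all genes tested and a threshold of 0.05. The biological coefficient of variation was 3.71%. Standard errors are the log2 fold change divided by the square root of F. CPM values were computed on library totals alone, without the TMM factors, and are given as mean ± SD of 3 libraries. The MN1 minus H9M difference came from a fit of all 24 libraries (14663 genes, 16 residual degrees of freedom). On simulated data for the interaction, run on 13695 genes, 100 of 100 genes changed 4-fold and 100 of 100 changed 2-fold were called, and 12 of 13495 unchanged genes. The changed genes were drawn from those averaging at least 5 CPM, so recovery at lower levels or of smaller changes was not tested. Floors of 3 counts cover counting error only.

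Alternatives were RLE scaling, library totals alone, DESeq2 1.42.0, limma-voom (limma 3.58.1), no filter, at least 5 CPM in 3 libraries, a replicate block, the 24-library fit, removal of the control share and leaving out each library. Removal of that share from the model comparison was added after seeing the data.

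Named genes were Kdm1a, Mn1, Gfi1, Gfi1b, Spi1 and Cyp26a1; the 15 most positive and 15 most negative called genes with at least 5 CPM in 1 group and 10 counts in each; called genes with 3 or fewer counts over a group; the 3 strongest per direction with opposite ATRA calls; and up to 4 called members of each of 24 gene lists by adjusted p. Rara, Rarg, Rxra, Rxrb, Cd38, Hic1, Hlf, Socs3, Cyba and Mpeg1 were named outside this rule after their values were seen. List medians cover members with more than 3 counts in each group. Members and lists were chosen with earlier results of these data known. Promoters are RefSeq GRCm38.p6 sequences.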

Additional observations from a re-analysis of the deposited data

Results flagged for a closer look

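For 24 named genes the knockout by ATRA interaction in MN1 cells differed from that in H9M cells when the difference itself was tested (edgeR's quasi-likelihood test over 24 libraries, Benjamini-Hochberg adjusted p under 0.05). Each value below is the MN1 interaction minus the H9M interaction on the log2 scale. The named genes were chosen partly by their MN1 interaction, which enters the difference.

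Kdm1a had the most negative difference, -2.89, which removing the control share brings near 0 by construction, since that share was taken from Kdm1a itself (0.10). Tgm2 had -1.005 and Klf5 -2.25, both with positive interactions in each model that were larger in H9M. Aldh1a3 had -1.39 with the same layout. With the control share removed, however, the Tgm2 difference was 0.37 and did not pass (adjusted p = 0.997). The Klf5 interaction in H9M rested on low control levels, 0.278 ± 0.143 CPM in H9M CTL + ATRA and 0.614 ± 0.132 CPM in H9M CTL W/O ATRA. Dhrs3 had 0.67 and Ms4a3 0.81, both positive in each model and larger in MN1.

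Napsa had -1.66, Cd300lf -1.34, P2rx1 -1.34, Tmem119 -1.24 and Rab37 -1.22, in each case with a negative MN1 interaction and an H9M value above 0. Ncf1 had -0.84, Elane -0.58 and Gstm1 -0.34, again negative in MN1 and positive in H9M. The H9M interactions of Napsa, Cd300lf, Tmem119, Rab37, Elane and Gstm1 were not called, at 0.11, 0.04, 0.18, 0.19, 0.21 and 0.07. That of P2rx1 was called, at 0.41. Irf8 had -0.64, Stc2 -0.53 and Hp -0.68, each with a negative MN1 interaction. In H9M, Irf8 was called at -0.38, while Stc2 at -0.17 and Hp at -0.01 were not called.

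Gsta4 had 1.72, Ccr2 1.21, Lyz2 1.20 and Parvb 0.84, in each case positive in MN1 and negative in H9M. Erg had 0.34 and Cd34 0.25, with the same signs, the H9M interaction of Cd34 being only -0.09. With the control share removed, the Erg and Cd34 differences were 0.29 and 0.17 and did not pass (adjusted p = 0.0591 and 0.265). The H9M interactions of Gsta4 (-0.96) and Parvb (-0.12) were not called. Clec4d had 0.64, from a more negative interaction in H9M. Leaving out 1 library raised the adjusted p of Hp to as much as 0.111 and that of Cd34 to as much as 0.0827.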

How the results depend on the processing

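On the log2 scale, no called interaction of a named gene changed direction under the alternatives tried, but on the linear CPM scale those of Tgm2, Ms4a3, Htr1b, Sema3a and Lyz2 turned negative and those of Cmah, P2rx7, Cd300lf, Pacsin1 and Itgb7 positive. The uncalled values of Mn1, Gfi1b and Kdm1a crossed 0 in some. With no count filter 390 genes were called negative, and without CTL W/O ATRA replicate 3 or KO W/O ATRA replicate 1 only 150 and 152 were. Leaving out each library in turn gave 126 to 202 positive and 150 to 244 negative interactions, 1024 to 1468 genes higher and 898 to 1662 lower with ATRA in KO cells, 1455 to 1813 higher and 1168 to 1935 lower with ATRA in CTL cells, 3994 to 4316 higher and 3718 to 4173 lower in the knockout with ATRA, 4019 to 4309 higher and 3449 to 4060 lower in the knockout without ATRA, and 108 to 138 positive and 133 to 182 negative differences between MN1 and H9M. With library totals alone 936 genes were lower with ATRA in KO cells. The causes were not tested. The correlation of deviations lay between -0.036 and 0.090 for same-numbered libraries and between -0.081 and 0.057 for differently numbered ones. Such small values cannot settle whether replicate numbers pair the libraries. A fit with the replicate block called 159 positive and 215 negative interactions. Other settings gave 160 to 207 positive and 203 to 247 negative calls, apart from the filter. Of the 405 genes, 204 were called in all 21 alternatives. Of 65 named genes recomputed, 41 kept their side of the threshold throughout, 23 changed it when a library was left out and 11 under another setting. Kdm1a crossed it upward in 3 alternatives. Low levels in CTL cells limit the precision of Cmah, H19, Fn1 and Gimap4.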
